A study of Homo sapiens with 12 samples.

Results

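The genes described here encode the proteins of the cytosolic ribosome. They were taken by name from the table of gene values, as the rows whose symbol has the standard form of a large subunit (RPL) or small subunit (RPS) protein, the stalk proteins and RPSA included. The rule asked for a mean of at least 10 over the 12 libraries, which all 77 rows of that form reached. These 77 genes, 46 of the large and 31 of the small subunit, stand among 36601 genes in the table, of which 15376 passed the same mean and were tested. KP4 is a human cell line from a pancreatic ductal carcinoma, labelled as wild type. For 24 h its cells received either the vehicle DMSO, 10 mM metformin (Met), 5 nM FK866 (FK) or metformin and FK866 at those same concentrations (Met+FK), with 3 libraries per treatment. Metformin acts on mitochondrial complex I, which oxidizes NADH, and FK866 inhibits NAMPT, the rate-limiting enzyme of NAD salvage. All 12 libraries come from 1 line, and nothing in the labels says that replicates were grown or treated separately, so p-values measure the spread between these libraries only.

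A cytosolic ribosome holds about equal numbers of each of these proteins, and their mRNAs are among the most abundant and least variable in growing cells. Most of the mRNAs begin with a cytosine followed by a run of pyrimidines, the 5′ terminal oligopyrimidine (TOP) motif. Through this motif, and the RNA-binding protein LARP1, the kinase mTOR controls how many of the transcripts are translated, so that protein output can change while the mRNA does not. The libraries measure mRNA only, not its translation.

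The first bases of the mRNAs were read from RefSeq (GRCh38.p14) for the 62 members that had an entry there, with 77 listed starts. A C at the start followed by at least 4 pyrimidines stood at a start of 46 of the 62 (74.2%), against 5.14% of the 27305 genes with an entry. Read only on the transcribed strand, such a run began within 5 bases of a start in 53 members (85.5%), against 25.2% of all genes. The sequences below show 30 bases of members to which the results return. Each has 10 bases before the start, so the listed start is base 11, and the capitals mark the run of at least 5 pyrimidines that holds the start or, where none does, lies nearest to it.
RPLP0 (chr12:120201092-120201121, minus strand): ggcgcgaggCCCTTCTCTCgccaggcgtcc
RPLP1 (chr15:69452808-69452837, plus strand): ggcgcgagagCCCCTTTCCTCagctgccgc
RPL12 (chr9:127451387-127451416, minus strand): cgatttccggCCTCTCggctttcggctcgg
RPL13A (chr19:49487598-49487627, plus strand): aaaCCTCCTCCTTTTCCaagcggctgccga
RPL26 (chr17:8383174-8383203, minus strand): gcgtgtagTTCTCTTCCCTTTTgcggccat
RPL35 (chr9:124861938-124861967, minus strand): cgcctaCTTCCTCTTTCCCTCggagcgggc
RPS6 (chr9:19380217-19380246, minus strand): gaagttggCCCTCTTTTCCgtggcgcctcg
RPL3 (chr22:39319604-39319633, minus strand): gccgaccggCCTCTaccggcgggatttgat
RPS15 (chr19:1438386-1438415, plus strand): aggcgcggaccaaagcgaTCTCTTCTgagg
RPS26 (chr12:56041908-56041937, plus strand): acataacctcgaTTTTCTTCCgccatccgg
In the first 7 sequences the run holds the listed start. In RPL3 it also holds the start but breaks off too soon to meet the definition. In RPS15 and RPS26 the marked run begins after the start, and shorter runs at or beside the start are not marked. Of the other translation genes known for this motif, 11 of 12 with an entry held it at a start.

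The members lay on 21 chromosomes, and chromosome 19 held the most of them, 12. Their transcripts were short, with a median of 785 bases for the canonical transcript against 2989 bases over all genes tested, while their GC content was close to that of the other genes (median 47.6% against 48.5%). The human genome carries 1588 pseudogenes named after them in GENCODE 44, from 1 for RPLP2 to 133 for RPL21, with a median of 14 per gene. Reads shared with these near-identical copies make the level of any single member uncertain. A further 31 members overlap another gene of the table. The highest mean over the 12 libraries was 120897 normalized counts, for RPL4, and the median member had 22138. Per kilobase of transcript, the DMSO level was highest for RPLP0 (78070 normalized counts per kilobase), RPS18 (71812) and RPL19 (70346). RPS10 stood far below all others, with a mean of 232 normalized counts against 7565 for the next lowest member. It lies inside the readthrough gene RPS10-NUDT3, which had between 0 and 1.77 normalized counts in the 12 libraries, and its values are therefore uncertain.

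The libraries held from 30667735 to 41052203 counted read pairs (median 34767231). The values are counts divided by DESeq2 size factors, which ranged from 0.867 to 1.21. Of the ductal markers, the keratins KRT18 (means of 10333 to 18307 normalized counts over the 4 treatments) and KRT8 (2517 to 3156) and the factor SOX9 (3781 to 4865) were the highest. The keratins KRT7 (228 to 281) and KRT19 (16.9 to 56.5), the mucin MUC1 (75.5 to 127) and the epithelial adhesion genes CDH1 (28.5 to 71.3) and EPCAM (7.2 to 12) were low beside VIM (96891 to 115708), a mesenchymal filament gene. KRT18 and KRT19 had their highest mean in DMSO and their lowest in Met+FK. The acinar and endocrine genes PRSS1, CPA1, CELA3A, INS, GCG and SST had means of at most 0.549 in every treatment, the endothelial marker PECAM1 had 5.24 to 8.16, and the leukocyte marker PTPRC had 134 to 244. The part of these differences in the results was not tested.

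Together the 77 members took between 5.18% and 6.60% of all counted read pairs. In DMSO their share was 6.25%, 6.15% and 5.68% in replicates 1, 2 and 3 (6.02% ± 0.30, SD, n = 3). In FK it was 6.02%, 5.18% and 5.28% (5.49% ± 0.46, SD, n = 3), so replicate 1 stood with the DMSO libraries and the other two below them. In Met it was 6.38%, 6.33% and 6.23% (6.31% ± 0.073, SD, n = 3), and in Met+FK 6.59%, 6.52% and 6.60% (6.57% ± 0.043, SD, n = 3). By this share the FK libraries overlapped those of DMSO, whereas each Met+FK library was above each library of the other groups. The libraries with metformin lay closer together than those without. The order depended on the scaling. After division by size factors, the members' summed counts were highest in DMSO replicate 1 (2.30e+06), above the Met+FK libraries (2.21e+06 to 2.27e+06). The group means of these sums were 2.17e+06 in DMSO, 1.95e+06 in FK, 2.09e+06 in Met and 2.24e+06 in Met+FK. The large and small subunits moved together: the ratio of their summed read pairs stayed between 1.57 and 1.64 in all libraries. The nuclear genes of the mitochondrial ribosome followed another order, with 0.576% to 0.611% of read pairs in DMSO, 0.549% to 0.594% in FK, 0.511% to 0.527% in Met and 0.510% to 0.525% in Met+FK.

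**Figure D1:**
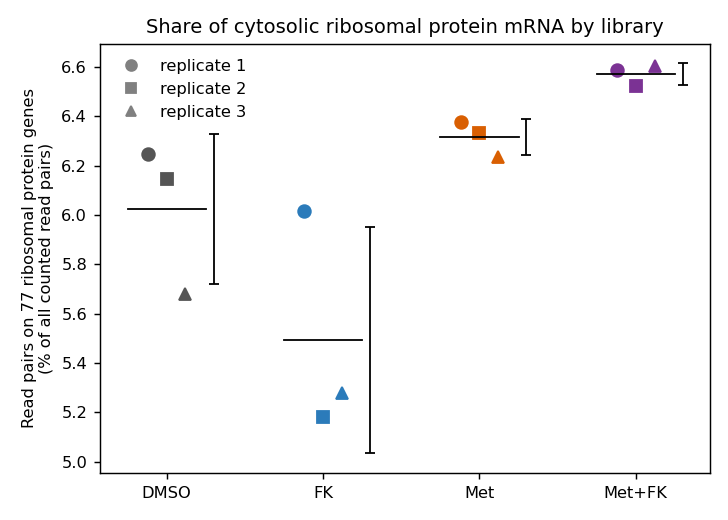
Percent of all counted read pairs that fell on the 77 ribosomal protein genes (vertical axis, which does not start at 0) in each library, by treatment, with 1 point per library shaped by replicate number, a line at the group mean and an error bar of 1 SD. The Met+FK libraries sit at 6.52% to 6.60%, above all others in this share, and the FK libraries spread from 5.18% to 6.02%.

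The first question was what metformin did to these mRNAs in cells without FK866. A smaller share of them passed the test than of all genes, and which direction led depended on the scaling. Of the 77, 13 were lower and 3 higher in Met than in DMSO at an adjusted p under 0.05, against 25.9% of all genes tested called lower and 24.9% called higher. The genes that rose were RPL12, RPL26 and RPL3, and those that fell were RPS26, RPS10, RPS15, RPL35, RPS9, RPL24, RPL7A, RPL38, RPL29, RPL18, RPL27, RPS29 and RPL35A. The median log2 fold change of the members was -0.09 (all genes 0.01), with 20 of 77 above 0 (51.0% of all genes), and 1 member, RPS26, also passed the 1.5-fold threshold for a differentially expressed gene (DEG), as 23.0% of all genes did in either direction. When each library was scaled to the same total instead, the median over all genes moved from 0.01 to 0.13 and 12 members were called higher and 8 lower (34.1% and 19.0% of all genes), with the members' median still 0.10 below that of all genes. After each library was corrected for the GC content and length of the transcripts, 11 were higher and 13 lower (27.1% and 30.0% of all genes), and the members' median of 0.00 was 0.01 above that of all genes. Of the 13 members called lower, 8 were also called lower then, and RPL18, RPL27, RPL29, RPL35 and RPS29 were not. The count of members higher was 1 without DMSO replicate 2, Met replicate 1 or Met replicate 2 and 7 without Met replicate 3. The shares of all genes in these fits are not given. In 4 members all Met values lay above all DMSO values (27.5% of all genes) and in 24 all lay below (29.4%).

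RPS26, a small subunit protein at the channel where the mRNA leaves the ribosome, showed the largest change of any member. Its normalized counts were 12691, 12144 and 11001 in DMSO, 11412, 8655 and 9598 in FK, 4998, 5072 and 5310 in Met and 4942, 5171 and 5814 in Met+FK. Every library with metformin was thus below every library without it, whether or not FK866 was present. The log2 fold change was -1.22 ± 0.096 (SE) in Met against DMSO (adjusted p = 1.85e-07, limma) and -0.89 ± 0.096 in Met+FK against FK (adjusted p = 3.77e-06), and both calls held when any of the 6 libraries compared was left out. The gene (chr12:56041351-56044697, plus strand, hg38) has 36 named pseudogenes, and its antisense neighbour had no more than 4.06 normalized counts in any library. Variants in RPS26, as in RPS19 and RPL35A, are known from Diamond-Blackfan anaemia, a failure of red cell formation. In RPS19 and RPL35A the differences with metformin were smaller, and the genes of this disease were not compared as a full set. RPL35A had log2 fold changes of -0.20 in Met against DMSO (adjusted p = 0.0423, 1 of 6 leave-one-out calls kept) and 0.09 in Met+FK against FK. RPS19 had -0.12 and 0.25 in these comparisons, and was called in the second only, as higher. Of the other 2 members beside the mRNA exit channel, RPS14 had -0.15 and 0.18 and RPS28 had -0.11 and 0.20. The groups of members by position in the ribosome used from here on were drawn up after values had been seen.

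RPL12, which anchors the stalk on the large subunit where elongation factors bind, moved the other way. It had 37613, 35570 and 32990 normalized counts in DMSO and 35997, 29681 and 30831 in FK. In Met it had 44294, 43558 and 45158, and in Met+FK 49486, 48933 and 50265. The libraries with metformin were again all outside the range of those without it, and the 3 Met+FK values were the highest. The log2 fold change was 0.33 ± 0.074 (SE) in Met against DMSO (adjusted p = 0.00188) and 0.63 ± 0.074 in Met+FK against FK (adjusted p = 8.53e-06), and both calls were kept without each library in turn. The stalk proteins themselves, RPLP0, RPLP1 and RPLP2, had log2 fold changes of 0.02, -0.05 and -0.09 in Met, none of which passed the test. With the trend on GC content and length removed, RPLP2 had 0.15 (adjusted p = 0.0319), a reversed direction.

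RPL26, which lies at the exit of the peptide tunnel, had 24078, 22642 and 23876 normalized counts in DMSO and 29343, 28059 and 24680 in Met, a log2 fold change of 0.21 ± 0.072 (SE, adjusted p = 0.0224). The groups did not overlap, but the third Met library was close to DMSO and 3 of 6 leave-one-out fits kept the call. RPL3, next to the peptidyl transferase centre, rose by 0.18 ± 0.065 (adjusted p = 0.0331), a call kept in 1 of 6. Its neighbour there, RPL10, had -0.02.

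RPS15, a protein of the small subunit head, fell in Met from 23678, 22871 and 20545 normalized counts to 16068, 15412 and 16552 (log2 fold change -0.48 ± 0.089, SE, adjusted p = 0.000457). RPL24 fell from 25919, 24662 and 22146 to 19760, 20017 and 18164 (-0.33 ± 0.075, adjusted p = 0.00212). RPS10, at its low level, fell from 320, 314 and 292 to 209, 195 and 217 (-0.57 ± 0.101, adjusted p = 0.000283). In all of these genes the groups were apart, and the calls survived the removal of any library. With the GC and length trend removed, the RPS15 difference was -0.21 (adjusted p = 0.00321). RPL35, at the tunnel exit like RPL26, fell by 0.38 (adjusted p = 0.00242), but had -0.12 and was not called with that trend removed (adjusted p = 0.0619). Of the 8 members at the tunnel exit 1 rose, 1 fell and 6 did not pass the test.

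**Figure D2:**
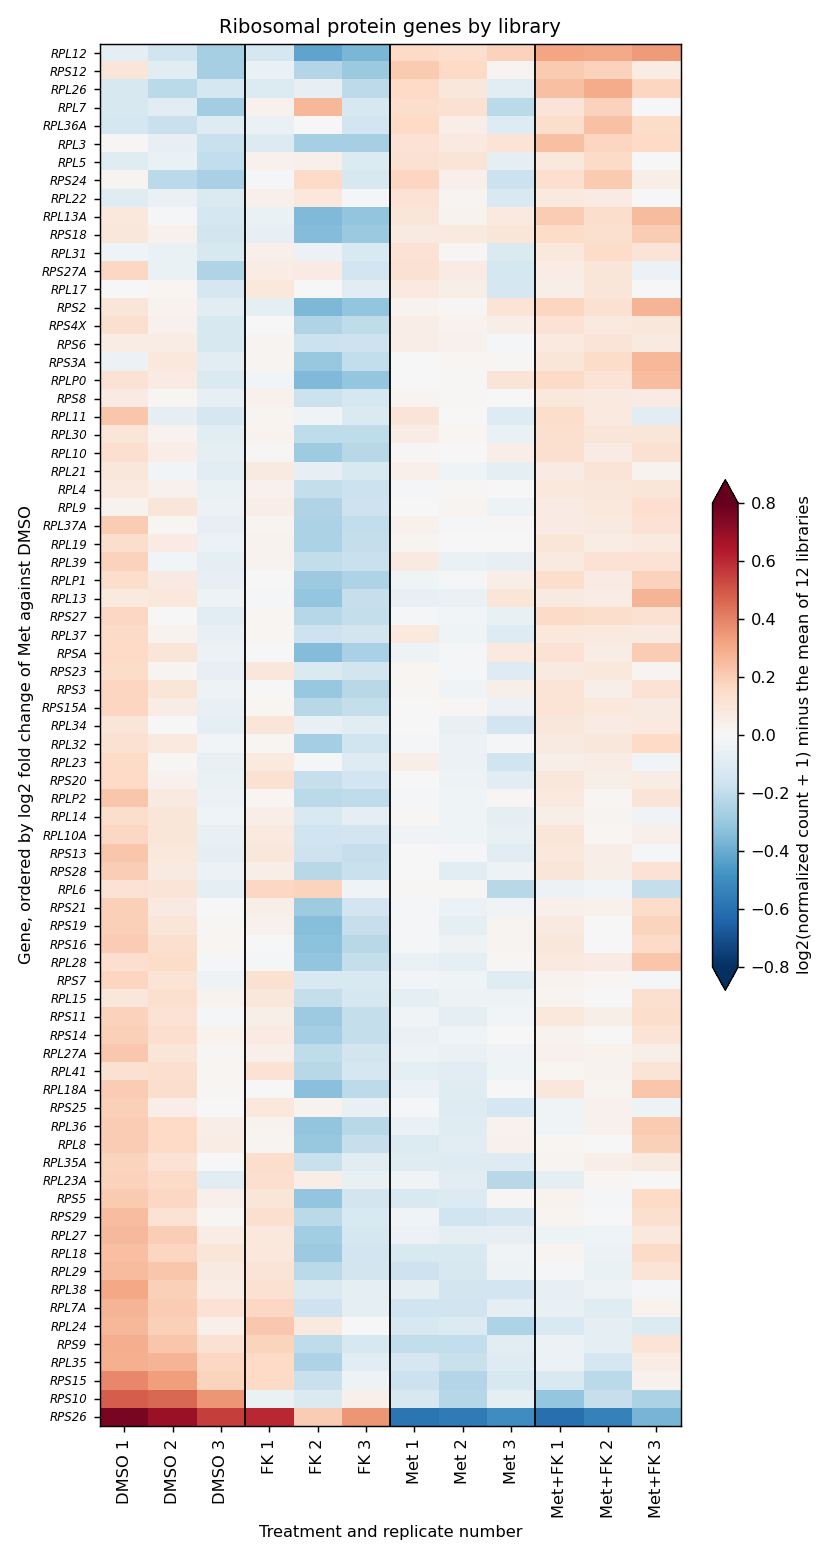
Difference of log2(normalized count + 1) from the mean of the 12 libraries (colour, cut off at 0.8 on either side) for 76 of the 77 ribosomal protein genes (rows, ordered by the log2 fold change of Met against DMSO) in the 12 libraries (columns, by treatment and replicate). RPL12 at the top is high in the 6 libraries with metformin, RPS26 at the bottom is low in them, and FK replicates 2 and 3 are low for most genes in between.

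The same drug was then compared in cells that also received FK866. Here many members rose: 34 of 77 were higher in Met+FK than in FK and 2 lower, against 20.5% and 21.7% of all genes tested. The median log2 fold change was 0.18 (all genes -0.01), and 68 of 77 lay above 0 (48.9% of all genes). RPL12 (up) and RPS26 (down) were the members past the DEG threshold, which 18.6% of all genes passed. Of the large subunit genes 20 of 46 rose (43.5%) and of the small subunit genes 14 of 31 (45.2%). The stalk genes were among those that rose. RPLP0 had 83634, 66432 and 68580 normalized counts in FK and 94334, 91446 and 100642 in Met+FK (log2 fold change 0.40 ± 0.086, SE, adjusted p = 0.00182), and RPLP1 rose by 0.31 ± 0.080 (adjusted p = 0.00602). RPLP2, at 0.20, did not pass (adjusted p = 0.0512).

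On the small subunit, RPS2 and RPS3, which line the channel where the mRNA enters, rose by 0.44 ± 0.079 (SE, adjusted p = 0.000449) and 0.27 ± 0.078 (adjusted p = 0.0126). RPS2 had 52443, 42868 and 44217 normalized counts in FK and 61968, 59941 and 66343 in Met+FK, with no overlap. RPSA, which doubles as a laminin receptor, rose by 0.33 ± 0.085 (adjusted p = 0.00577). RPS6, the substrate of the kinase S6K, rose by 0.19 ± 0.069 (adjusted p = 0.0375), a call that 1 of 6 leave-one-out fits kept. On the large subunit, RPL13A, known for a role of its own in silencing inflammatory mRNAs, rose by 0.44 ± 0.081 (adjusted p = 0.000488), RPL3 by 0.40 ± 0.065 (adjusted p = 0.000162), RPL26 by 0.36 ± 0.072 (adjusted p = 0.000941) and RPL10 by 0.27 ± 0.076 (adjusted p = 0.0103). All of these, except RPS6 and RPS3 (5 of 6), kept their calls without any library.

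Members that did not pass in either metformin comparison included RPL5 and RPL11, which with the 5S ribosomal RNA form the particle that binds MDM2 when ribosome assembly fails. RPL5 had 28603, 29462 and 26695 normalized counts in DMSO, 31245, 31393 and 28285 in FK, 33226, 32824 and 28997 in Met and 32358, 34009 and 30666 in Met+FK. RPL11 had log2 fold changes of -0.00 and 0.09, and RPS27A, made as a fusion with ubiquitin, of 0.06 and 0.05. RPL41, which encodes the shortest protein of the ribosome, had -0.16 and 0.13. The 2 members lower in Met+FK than in FK were RPS26, given above, and RPL24, by 0.20 ± 0.075 (adjusted p = 0.042), with 25085, 22812 and 21538 normalized counts in FK and 19869, 20454 and 19986 in Met+FK. The RPL24 call was kept in 1 of 6 leave-one-out fits. The number of members higher ranged from 16 without FK replicate 2 and 18 without FK replicate 3 or Met+FK replicate 3, through 21 without Met+FK replicate 1, to 53 without FK replicate 1. Without FK replicate 1, 18.8% of all genes were called higher, and for the other fits no share is given.

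The comparisons of metformin without and with FK866 share no library. Across the 77 members their log2 fold changes had a Pearson r of 0.76 and a Spearman rho of 0.48, and without RPS26 and RPL12 an r of 0.55. Across all 15376 genes r was the same, 0.76. The points share base composition and size factors, and genes are not independent replicates. Of the 77 members 71 had the higher value with FK866, against 51.3% of all genes. This is the sign of the difference that is tested below as an interaction, which no member passed.

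**Figure D3:**
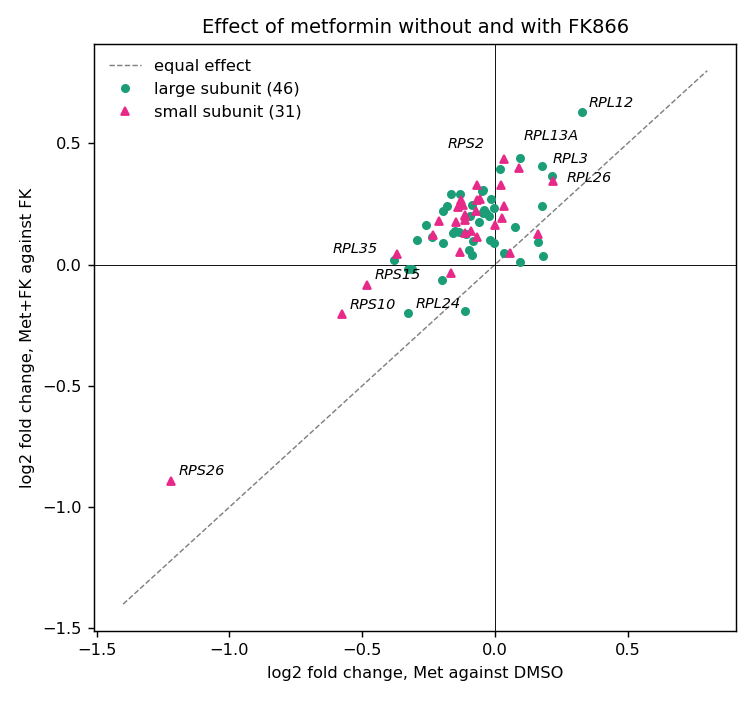
Log2 fold change of each ribosomal protein gene in Met against DMSO (horizontal axis) and in Met+FK against FK (vertical axis), with the large subunit as circles, the small subunit as triangles and a dashed line of equal effect. RPS26 (-1.22 and -0.89) and RPL12 (0.33 and 0.63) lie apart from the rest, and most points are above the dashed line.

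**Figure D4:**
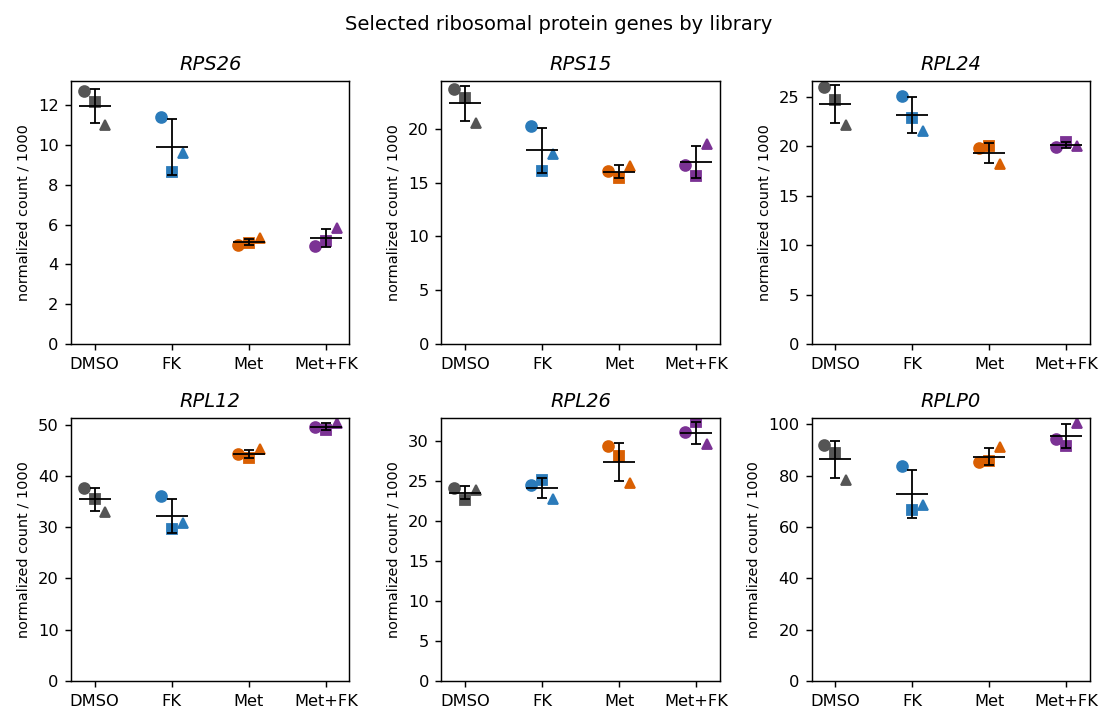
Normalized counts, divided by 1000 (vertical axis from 0), of RPS26, RPS15, RPL24, RPL12, RPL26 and RPLP0 in each library by treatment, with 1 point per library shaped by replicate number (circle 1, square 2, triangle 3) and the mean with 1 SD as a bar. RPS26 has 4942 to 5814 normalized counts in the 6 libraries with metformin and 8655 to 12691 in the others.

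FK866 alone was compared with DMSO next. The members were lower in FK, by a small amount: 19 of 77 were called lower and 0 higher, against 9.84% and 11.3% of all genes tested. All FK values lay below all DMSO values in 8 members (21.6% of all genes) and above them in 1 (17.2%). No member was called higher by edgeR or DESeq2 either (12.8% and 17.1% of all genes), and 41 members had an unadjusted p under 0.05 (42.2% of all genes). The median log2 fold change was -0.17 (all genes -0.02), 10 of 77 lay above 0 (48.3% of all genes), and none passed the DEG threshold (3.49% of all genes). The strongest changes after RPS10 (-0.48 ± 0.101, SE, adjusted p = 0.0156) were those of RPS15 (-0.32 ± 0.089, adjusted p = 0.0299) and RPL36 (-0.31 ± 0.089, adjusted p = 0.0316). RPS15 had 20255, 16044 and 17631 normalized counts in FK and RPL36 had 13362, 10552 and 11264, against 15136, 14643 and 13630 for RPL36 in DMSO. In both genes the groups did not overlap, although FK replicate 1 came close to DMSO and 2 of 6 leave-one-out fits kept the call. RPS2, RPS3, RPSA, RPS19, RPS14 and RPL35 were also lower, by 0.25 to 0.30, whereas of the stalk genes RPLP0 (-0.25, adjusted p = 0.0521), RPLP1 (-0.23, adjusted p = 0.0543) and RPLP2 (-0.22, adjusted p = 0.0578) did not pass.

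The count of members lower in FK moved with single libraries, and where no share of all genes is given it cannot be set against them. It was 0 without DMSO replicate 1 or without FK replicate 2, 1 without DMSO replicate 3 or without FK replicate 3, 10 without DMSO replicate 2 and 54 without FK replicate 1 (15.2% of all genes). With the replicate number as a block it was 43 lower and 1 higher (21.3% and 23.3% of all genes), and with a block within the libraries without and with metformin it was 55 lower and 2 higher (24.7% and 25.8%). With the block, RPLP0, RPLP1 and RPLP2 were called lower (adjusted p = 0.00155 for RPLP0, 0.00164 for RPLP1 and 0.000842 for RPLP2 with the block within metformin status).

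The size of the FK866 difference moved with base composition. Across members, the log2 fold change had a Pearson r of -0.69 with the GC content of the transcript, and across all genes r was -0.60. Of the 26 members with the lowest GC content (40.1% to 45.5%) 1 was called lower, of the 26 in the middle 4, and of the 25 with the highest (52.2% to 63.6%) 14, and the medians were -0.10, -0.18 and -0.26. The shares of all genes called in these ranges are not given. Over all genes, the medians were 0.26 and 0.14 in the GC bins that start at 40% and 42.5%. They were -0.05 and -0.13 in those from 47.5% and 50%, and -0.17 and -0.23 in those from 52.5% and 60%. The members' medians were below these, by the least at the highest GC content. The libraries themselves differed in this property: the slope of a library's log2 values on GC content, per 10 percentage points, was 0.18, 0.03 and 0.17 in DMSO and -0.01, -0.23 and -0.02 in FK. After removal of each library's trend on GC content and length, 6 members were lower in FK (4.61% of all genes) and the median was -0.05. Of the 19 called without that step only RPS3 and RPL27A were among them, and RPS15 (adjusted p = 0.602) and RPL36 (adjusted p = 0.628) both had -0.05. With the trend removed and the block within metformin status it was 24 (11.8%). What part base composition has in the difference between FK and DMSO was not tested.

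**Figure D5:**
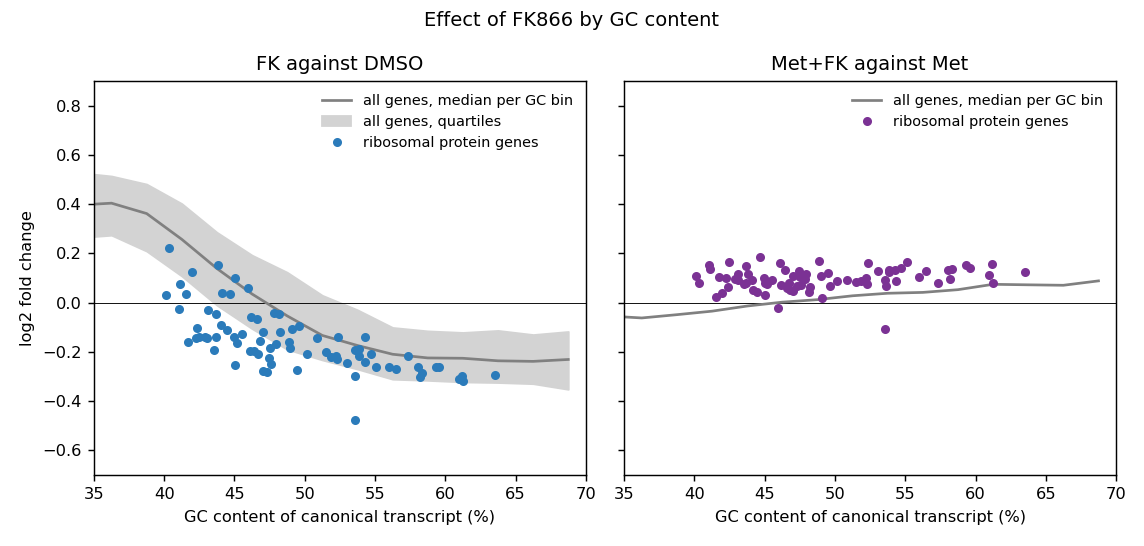
Log2 fold change of each ribosomal protein gene (points) against the GC content of its transcript in percent, for FK against DMSO (left) and Met+FK against Met (right), with the median of all genes tested in bins of GC content as a line and, on the left, their quartiles as a band. On the left the points fall with GC content (r = -0.69), and on the right nearly all of them lie above 0 (75 of 77).

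FK866 was also compared in cells that received metformin. In Met+FK against Met, 0 members were called in either direction (0.0911% of all genes tested were called higher and 0.0065% lower), 4 had an unadjusted p under 0.05 (6.84% of all genes), and edgeR and DESeq2 called 0 as well (0.0911% and 0.42% of all genes higher). The log2 fold changes were nevertheless small and almost all above 0: 75 of 77, with a median of 0.10 (all genes 0.01, 51.9% above 0). In 42 members all Met+FK values lay above all Met values (7.88% of all genes), and in none were all below (5.56%). RPL26 had the largest of these differences, 0.18 ± 0.072 (SE, adjusted p = 0.656), and RPLP0 had 85241, 85607 and 91049 normalized counts in Met. The exceptions to the common sign were RPS10 (-0.11) and RPL6 (-0.02). The block gave 0 calls, and the block with the trend on GC content and length removed gave 3 members higher, or 10 with the block within metformin status (3.33% of all genes).

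The difference between the 2 FK866 effects, with metformin minus without, was tested as an interaction. No member passed it (0.0065% of all genes were called higher and 0.052% lower), and the smallest adjusted p of a member was 0.110. The point estimates were above 0 in 71 of 77 members (51.3% of all genes), with a median of 0.29 (all genes 0.02), and 51 members had an unadjusted p under 0.05 (30.5% of all genes). Among the named genes the largest values were those of RPL36 (0.42 ± 0.125, SE), RPS15 (0.40 ± 0.126) and RPS2 (0.40 ± 0.112), followed by RPSA (0.39). With the replicate block 49 members were called higher (15.5% of all genes), with the block within metformin status 57 (21.0%), without FK replicate 1 49 (6.37%), by DESeq2 3 (2.35%) and by edgeR 0 (0.0065%). With the trend on GC content and length removed it was 0 without a block (0.209%) and 34 with the block within metformin status (6.27%). The interaction, too, had an r of 0.69 with GC content across members and of 0.62 across all genes.

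Against the vehicle, cells with both drugs had 9 members higher and 7 lower (26.1% of all genes in each direction), with a median log2 fold change of 0.02 (all genes 0.01). The members that rose were RPL12, RPL26, RPL36A, RPS24, RPL3, RPS12, RPL13A, RPL5 and RPL31, and those that fell were RPS26, RPS10, RPS15, RPL35, RPL24, RPL7A and RPL38. RPL12 rose by 0.49 ± 0.074 (SE, adjusted p = 6.81e-05) and RPL26 by 0.40 ± 0.072 (adjusted p = 0.000345). RPL36A, which has a closely related expressed paralog, had 8218, 8014 and 8431 normalized counts in DMSO and 10000, 10675 and 10019 in Met+FK (0.32 ± 0.074, adjusted p = 0.00248). RPS26 (-1.17) and RPS10 (-0.68) passed the DEG threshold (25.1% of all genes in either direction). In RPL5 the groups were apart (0.20 ± 0.073, adjusted p = 0.0353), a call kept in 2 of 6 leave-one-out fits. The count higher was 4 without DMSO replicate 3 or Met+FK replicate 1 and 5 without Met+FK replicate 2, and the count lower was 4 without DMSO replicate 1 or Met+FK replicate 2. No shares of all genes are given for these fits. When libraries were scaled to the same total, 20 members were higher and 4 lower (31.7% and 21.4% of all genes), with a median of 0.11 (all genes 0.10). With the trend on GC content and length removed, 32 were higher and 6 lower (29.7% and 30.8% of all genes), and the median was 0.12 (all genes -0.00). RPL35 and RPL7A were no longer called lower then.

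Members with and without the TOP motif at a listed start had similar medians, a difference that was not tested. The 46 with it had median log2 fold changes of -0.07 in Met against DMSO, 0.18 in Met+FK against FK and -0.20 in FK against DMSO, and the 16 without had -0.11, 0.13 and -0.16. The pair with the largest opposite changes differed in this respect: RPL12 has the motif at its listed start and RPS26 does not. RPL3 and RPL26, which both rose with metformin, differ in the same way, as do RPL35 and RPS15, which both fell. A run of this kind does begin within 5 bases of the listed start in RPL3, but not in RPS26 or RPS15.

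The other TOP mRNAs, those of 18 translation factors and related genes, gave mixed results. In Met against DMSO 5 were higher and 2 lower (24.9% and 25.9% of all genes), in Met+FK against FK 8 were higher and 2 lower (20.5% and 21.7%), and in FK against DMSO 0 were higher and 2 lower (11.3% and 9.84%). The median log2 fold changes were 0.03, 0.16 and 0.05. EEF1A1, the factor that delivers aminoacyl-tRNA, rose by 0.43 (adjusted p = 8.08e-05) in Met and by 0.49 (adjusted p = 2.54e-05) in Met+FK against FK, and its mean went from 374074 normalized counts in DMSO to 502554 in Met. PABPC1, the poly(A)-binding protein, rose by 0.34 and 0.43, and EIF4B, a partner of the helicase that opens the 5′ end, by 0.27 and 0.26. EEF2, the translocase, rose in Met+FK against FK (0.48). HNRNPA1, a splicing factor, fell by 0.33 and 0.44, and BTF3, of the nascent chain complex, by 0.21 and 0.24, each call kept in 2 of 6 leave-one-out fits. In FK against DMSO RACK1, the scaffold of the small subunit head, was called lower by 0.28 (adjusted p = 0.0269, 3 of 6 leave-one-out calls kept) and EEF1G by 0.26 (adjusted p = 0.0336, 2 of 6). With the trend on GC content and length removed they had -0.09 (adjusted p = 0.316) and -0.05 (adjusted p = 0.554).

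Of 14 genes of mTOR signalling and cap binding, 2 were higher and 4 lower in Met against DMSO (24.9% and 25.9% of all genes), and 4 were higher and 3 lower in Met+FK against FK (20.5% and 21.7%), shares that for the genes called lower were close to those of all genes. EIF4EBP2, a repressor of the cap-binding protein, fell by 0.65 (adjusted p = 3.36e-06) in Met and by 0.72 in Met+FK against FK, and RPS6KB2, an S6 kinase, by 0.68 and 0.29 (the latter call kept in 3 of 6 leave-one-out fits). TSC1, which restrains mTOR, rose by 0.42 and 0.32. EIF4E, the cap-binding protein, fell in Met+FK against FK by 0.95 (adjusted p = 0.000129), and LARP1 rose by 0.32. MTOR itself had means of 8321 to 8851 normalized counts in the 4 treatments and was called in none of these comparisons.

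Some ribosomal proteins have paralogs that can take their place, and 6 of the 8 listed paralog genes were expressed above the filter. RPL22L1, the paralog of RPL22, had 1467, 1348 and 1340 normalized counts in DMSO, 2035, 1741 and 1596 in Met and 2378, 2372 and 2099 in Met+FK. It rose by 0.36 in Met against DMSO (adjusted p = 0.00914), by 0.52 in Met+FK against FK (adjusted p = 0.00108) and, past the DEG threshold, by 0.72 in Met+FK against DMSO. RPL22 itself had 0.09 and 0.01 in the first 2 of these, neither past the test, with 7856 to 9269 normalized counts over all libraries. RPL36AL went against its partner RPL36A, falling by 0.30 and 0.42 where RPL36A had 0.18 (adjusted p = 0.0582) and rose by 0.24 (adjusted p = 0.017). RPL39L fell by 0.40 in Met and by 0.37 in FK against DMSO (the FK call kept in 3 of 6 leave-one-out fits, and adjusted p = 0.0554 with the trend removed), where RPL39 had -0.04 and -0.14. RPL7L1 fell by 0.45 and 0.44, and RPL26L1 and RPS27L were called in no comparison, while RPL3L and RPL10L stayed under the filter. RPS27 rose in Met+FK against FK by 0.27 (adjusted p = 0.0114).

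FAU, which is not among the 77 by its symbol, encodes a small subunit protein made as a fusion with a ubiquitin-like protein. Its mean was 10263 normalized counts in DMSO. It was called lower by 0.36 on the log2 scale in Met against DMSO (adjusted p = 0.00174, 6 of 6 leave-one-out calls kept) and by 0.31 in FK against DMSO (adjusted p = 0.0261, 2 of 6). With the trend on GC content and length removed the values were -0.13 (adjusted p = 0.0289) and -0.08 (adjusted p = 0.342). In Met+FK against FK it was not called, with a log2 fold change of -0.01.

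The nuclear genes for the mitochondrial ribosome, the other ribosome of the cell, gave a plainer picture under metformin. Of 76 tested, 49 fell and 1 rose in Met against DMSO (25.9% and 24.9% of all genes) with a median log2 fold change of -0.36, and 32 fell and 2 rose in Met+FK against FK (21.7% and 20.5%) with a median of -0.20. For the cytosolic members the medians were -0.09 and 0.18. In FK against DMSO, 14 of the mitochondrial genes fell and 3 rose (9.84% and 11.3% of all genes), with a median of -0.17, the same to 2 decimals as that of the cytosolic members. In Met+FK against Met their median was 0.02, against 0.10 for the cytosolic members, and 0 were called.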

How the data were processed

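Total RNA of KP4 cells was depleted of ribosomal RNA and sequenced as read pairs. After trimming (cutadapt) and alignment to hg38 (STAR), the authors assigned pairs with both ends mapped to genes (featureCounts) and deposited counts divided by DESeq2 size factors, a depth-scaled signal without length correction. The annotation and strand setting are not given in the sources used here. In every library 100% of values were whole multiples of 1 read pair (within 0.01), so the counts were recovered. Counting error alone is small at this depth, and replicates differed by more than it (chi-square per degree of freedom 5.69 to 51.4).

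Members and gene lists were chosen with earlier results of these data known. Genes with a mean of at least 10 were tested on log2(normalized count + 1) by limma 3.58.1 in R 4.3.3 with a trend, fitting the 4 treatment means over 12 libraries, in 6 contrasts, two-sided, with Benjamini-Hochberg adjustment over the 15376 genes. Fold changes are on that scale. A call is an adjusted p under 0.05, and a DEG also exceeds 1.5-fold. Named genes were 20 fixed by role and, per contrast, the 3 largest called changes in each direction with groups that do not overlap. Others were chosen after values were seen. Single-gene results of 1 member are not reported here.

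Alternatives were pseudocounts of 0.1 and 10, no filter, other scalings, fewer libraries, a replicate block, removal of a loess trend (span 0.3) on GC content and length (GENCODE 44), edgeR 4.0.16 and DESeq2 1.42.0 on the recovered counts, and each library left out. The block within metformin status was added after the data were seen. Libraries with the same number deviated together from their groups, with correlations of 0.25, 0.42 and 0.22 for DMSO with FK and of 0.17, 0.20 and 0.23 for Met with Met+FK, all above 0.1, and were treated as pairs on that evidence only. After the trend was removed the latter were 0.159, 0.0964 and 0.0738, of which 2 miss that limit. DMSO with Met (lowest 0.0129), DMSO with Met+FK and FK with Met+FK (lowest 0.0461) did not pass. The fit was first tested on simulated data, with 40 changed genes per fold change in Met against DMSO. It called 5 of the 40 raised 1.25-fold, 35 of the 40 raised 1.5-fold and 40 of the 40 raised 2-fold. In that comparison 13 unchanged genes were called. Small changes were thus rarely called, and a member that did not pass is not shown to be unchanged.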

Additional observations from a re-analysis of the deposited data

How the results depend on the processing

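The members' counts of calls were recomputed under each alternative that applies to a comparison. The block within metformin status was fitted for the comparisons of FK866 and the interaction only, and was chosen after the data were seen, and the fit to 6 libraries was made for every comparison but the interaction. For Met against DMSO, 3 were higher and 13 lower. Higher counts were 1 with all genes above 0, 12 with the same total (8 lower), 6 with TMM, 6 with edgeR, 7 with the replicate block, 11 with the GC and length trend removed and 13 with that and the block, and 1 to 7 without single libraries, where 9 to 16 were lower. For Met+FK against FK, 34 were higher and 2 lower. With all genes above 0 it was 18 and 1, with the trend removed and the block 58 higher, without single libraries 16 to 53 higher and 1 to 3 lower, and 1 was lower with the same total, with only the 6 libraries compared or with the trend removed. For FK against DMSO, 0 were higher and 19 lower. Lower counts were 1 with all genes above 0, 12 with TMM, 8 with edgeR, 0 with only the 6 libraries compared, 6 with the trend removed, 43 with the block (1 higher) and 55 with the block within metformin status (2 higher), and 0 to 54 without single libraries. For Met+FK against Met, 0 were called, but 3 were higher with the trend removed and the block, and 10 with the trend removed and the block within metformin status, which alone gave 0. For Met+FK against DMSO, 9 were higher and 7 lower. Higher counts were 4 with all genes above 0, 20 with the same total (4 lower), 14 with the block, 32 with the trend removed and 36 with that and the block, and 4 to 7 without single libraries (4 to 8 lower). For the interaction, 0 were called, against 49 with the block, 57 with the block within metformin status, 19 and 34 with these and the trend removed, 3 with DESeq2 and 0 to 49 without single libraries. The share of all genes called moved with the settings too, and several shares are given above. With the block, 30.3% of all genes were higher in Met against DMSO, 25.2% in Met+FK against FK and 31.3% in Met+FK against DMSO. With edgeR, 26.9% were higher in Met against DMSO, and 6.91% were lower in FK against DMSO. Counts without a share here or above cannot be set against all genes. The cause of these moves was not tested.

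Of the alternative fold changes of single named genes, 2640 stayed on their side of the threshold, 167 passed it only under the alternative and 123 only in the main analysis. In 8 the sign was opposite and the adjusted p under 0.05. Changes of sign that did not pass are not counted among the 8. The last were those with the trend removed, without and with the block: RPLP2 in Met against DMSO (0.15, adjusted p = 0.0319 and 0.00515) and, in Met+FK against DMSO, RPLP2 (0.22, adjusted p = 0.00304 and 0.000206), RPL36 (0.15, adjusted p = 0.0212 and 0.0111) and RPS19 (0.14, adjusted p = 0.0391 and 0.0154). Depth does not limit these abundant genes, except RPS10. The spread between 3 libraries per group does.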

Other observations

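The members were among the steadier genes of these cells. Over the 12 libraries the coefficient of variation of the normalized counts had a median of 8.75% for the 77 members, against 14.3% for the 6621 genes whose mean reached 1000, and 1067 of those 6621 were steadier than the median member. These sets were not matched for level, and the median member had a mean of 22138 normalized counts. RPL14 varied least (5.23%), and RPS26 most (39.1%), followed by RPS10 (20.8%), RPL12 (18.5%) and RPS15 (15.7%). RPL14, RPL22 (5.63%) and RPL17 were close to level across treatments, although drugs, replicates and base composition all enter these values. RPL5 varied little too (7.36%), but it was called higher in Met+FK than in DMSO.

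The counts of members above their own mean of the 12 libraries set single libraries apart. They were 68, 62 and 22 in DMSO and 61, 11 and 2 in FK, against 35, 28 and 26 in Met and 63, 61 and 63 in Met+FK. DMSO replicate 3 thus lay on the side of FK replicates 2 and 3, and FK replicate 1 on that of the other DMSO libraries, for most members at once.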
